A study of Mus musculus with 6 samples.

Results

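The miR-183, miR-96 and miR-182 cluster gives rise to the mature miRNAs miR-183-5p (MIMAT0000212), miR-96-5p (MIMAT0000541) and miR-182-5p (MIMAT0000211). These 3 of the 707 mature miRNAs in the counts were found by their accession, with no threshold on a measured value, though the cluster was chosen with earlier results of these data known. The data are miRNA-seq of white adipose tissue (WAT) from male ApoE-deficient mice, with 3 libraries from the control group and 3 from the group exposed to chronic intermittent hypoxia (CIH). CIH lasted 8 weeks and consisted of repeated cycles between room air (21% oxygen) and a low point near 6%, with 60 s for each phase. Both groups lack ApoE, the apolipoprotein that clears lipoproteins from blood, so no value here separates an effect of CIH from one that needs ApoE deficiency. The depot of WAT and the age of the mice are not given in the sources used here, nor is it said that each library came from its own mouse. The p-values therefore measure the spread between libraries, which may be technical.

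The members of this cluster are cut from 1 long primary transcript, so their production is linked while the amount of each mature miRNA also depends on processing and stability. A mature miRNA lowers the output of mRNAs that pair with its seed, bases 2 to 8 from the 5′ end. The cluster is best known from sensory cells such as hair cells and photoreceptors, and it is also made in epithelia. miR-182 and miR-96 are known to repress Foxo1, a transcription factor of insulin signalling, and miR-182 is a known regulator of brown adipocytes. Seed mutations of miR-96 cause hearing loss in mice.

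The mature sequences are shown because the seed sets which mRNAs each member can pair with. They are from RefSeq on GRCm38.p6, 5′ to 3′, with the seed in capitals.
miR-183-5p: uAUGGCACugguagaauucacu
miR-96-5p: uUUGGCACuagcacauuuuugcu
miR-182-5p: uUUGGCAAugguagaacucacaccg

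All 3 members were matched in this table. They are 22, 23 and 25 bases long and each begins with U. miR-96-5p and miR-182-5p share the hexamer UUGGCA at bases 2 to 7, and 6 of their 7 seed bases are identical. Beyond the seed they part, with 12 identical bases in 23 when aligned from the 5′ end without gaps. miR-183-5p and miR-182-5p show the reverse, with 5 of 7 seed bases identical but 18 of 22 bases overall. Their longest shared run is UGGUAGAA, 8 bases from base 9 of each, outside the seed. miR-183-5p and miR-96-5p had 6 identical seed bases and 13 identical bases in 22. Among the 1679 mature miRNA names in the table, the full seed of miR-96-5p was also found in miR-1271-5p, whereas the seeds of miR-183-5p and miR-182-5p were found in no other. The counts of each member differed from those of every other miRNA in the file.

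The 3 hairpins lie on the minus strand of chromosome 6. Mir183 spans chr6:30169668-30169737, Mir96 spans chr6:30169446-30169551 and Mir182 spans chr6:30165918-30165992 (GRCm38). In the direction of transcription, 116 bases separate Mir183 from Mir96, and 3453 bases separate Mir96 from Mir182. RefSeq places all 3 within the noncoding gene Mirc35hg (chr6:30158640-30174125, minus strand). GENCODE release M21 has no other gene over the hairpins, and its nearest protein-coding gene is Nrf1, which ends 12459 bases from Mir182. The hairpins are shown because they hold both arms, and the 5p arm, which was measured, is in capitals.
Mir183: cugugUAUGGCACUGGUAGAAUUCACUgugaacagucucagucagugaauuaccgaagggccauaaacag
Mir96: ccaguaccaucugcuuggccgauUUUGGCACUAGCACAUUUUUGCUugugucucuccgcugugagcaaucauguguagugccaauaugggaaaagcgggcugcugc
Mir182: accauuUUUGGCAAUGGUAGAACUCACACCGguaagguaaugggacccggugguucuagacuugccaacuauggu

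The 3p arms of these hairpins are not analysed here, because the counts are listed by accession and the tables used here do not pair accessions with names. For the same reason, lists of miRNAs typical of adipose, epithelial and other cells could not be placed, and the tissue label was not checked against such markers.

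**Figure D1:**
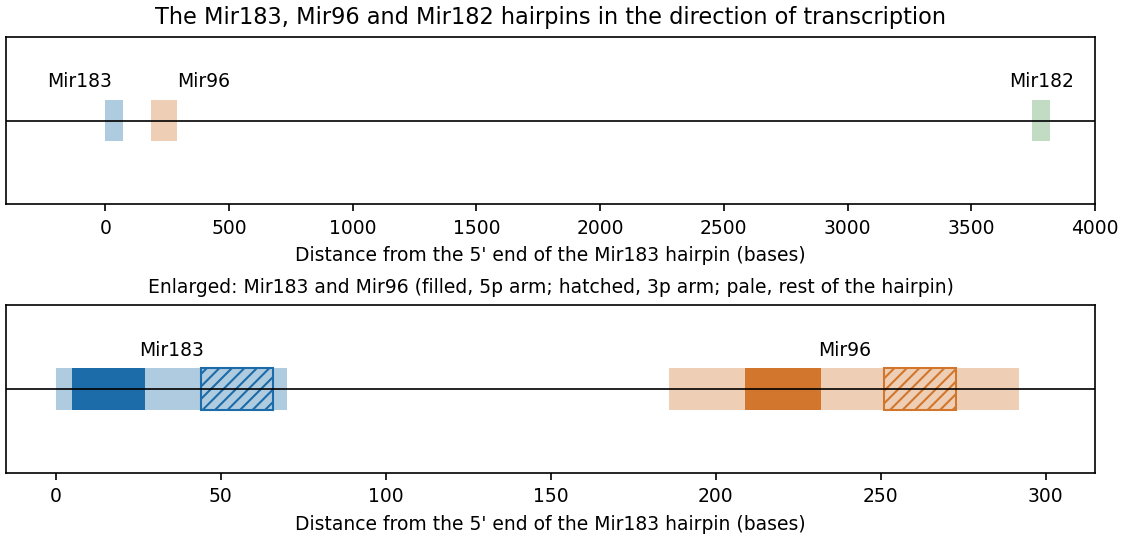
Position of the 3 hairpins along the strand of transcription, as the distance in bases from the 5′ end of the Mir183 hairpin (top), with Mir183 and Mir96 enlarged (bottom). Mir183 and Mir96 lie 116 bases apart and Mir182 lies 3453 bases beyond Mir96.

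The libraries held between 636963 counts (CIH 3) and 4783768 counts (Control 2), with 1365868 in Control 1. At least 1 count was found for 487 miRNAs in Control 1 and 552 in Control 2, against 631 to 649 in the other 4 libraries. Control 1 and Control 2 thus stood apart from Control 3 within their own group, and the results below are also given without single libraries. Levels are given as CPM, the counts scaled to equal library sizes, after TMM normalization, which scales each library by a factor for composition. The factors ran from 0.575 in Control 1 to 1.45 in CIH 3. A level in bulk tissue does not tell fewer cells of a type from less RNA per cell.

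miR-182-5p had the highest count of any member in all 6 libraries. Control 1, 2 and 3 held 6409, 701 and 491 counts of it, and CIH 1, 2 and 3 held 2098, 929 and 572. The level was 8154, 169 and 443 TMM-normalized CPM across the control libraries, against 1685, 1004 and 620 across the CIH libraries. The highest and both of the lowest values were thus control libraries, and the CIH values lay between them. Control 1 held 93.0% of the summed control level. By count, miR-182-5p ranked 23rd of all miRNAs in Control 1 and 130th in Control 2, and between 55th and 89th in the CIH libraries.

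miR-183-5p, the first member of the transcript, followed a similar order. Control 1, 2 and 3 held 1128, 349 and 263 counts, and CIH 1, 2 and 3 held 790, 442 and 269. The level was 1435, 84.2 and 237 TMM-normalized CPM across the control libraries, against 634, 478 and 292 across the CIH libraries. Again Control 1 was the highest library, Control 2 and Control 3 were the lowest, and the groups overlapped. Control 1 held 81.7% of the summed control level.

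miR-96-5p differed from this order. Control 1, 2 and 3 held 282, 73 and 326 counts, and CIH 1, 2 and 3 held 1138, 423 and 280. The level was 359, 17.6 and 294 TMM-normalized CPM across the control libraries, against 914, 457 and 304 across the CIH libraries. CIH 1 and CIH 2 lay above every control library, while CIH 3 lay between Control 3 and Control 1. Control 1, which was far above the others for miR-182-5p, was not so for miR-96-5p.

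**Figure D2:**
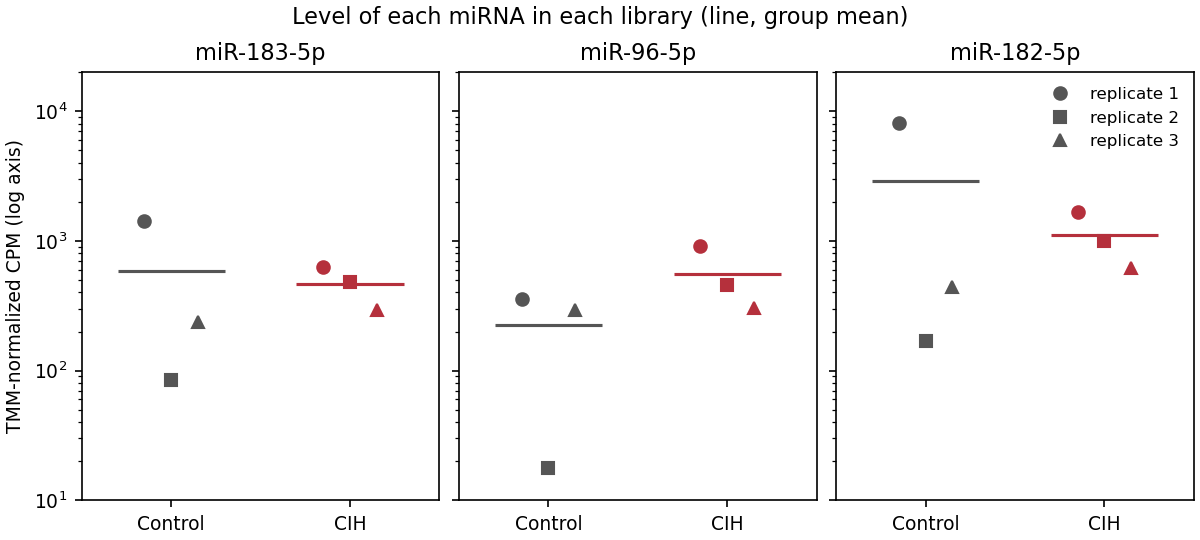
TMM-normalized CPM of each member (log axis) in the 3 control and 3 CIH libraries, with a marker shape per replicate number and a line at the group mean. The control libraries of miR-182-5p run from 169 to 8154 and enclose the CIH libraries, which run from 620 to 1685.

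To find whether CIH changed the level of the cluster in WAT, edgeR's quasi-likelihood test was run on all 633 miRNAs whose counts summed to at least 10. All 3 members passed this filter, and all had at least 10 counts in every library. miR-96-5p was 223 ± 181 TMM-normalized CPM (SD, n = 3) under control conditions and 558 ± 317 (SD, n = 3) under CIH. The log2 fold change was 1.32 (standard error 1.09, 95% interval -1.27 to 3.92, edgeR adjusted p = 0.882). The difference was thus within the spread between the libraries. miR-182-5p was 2922 ± 4533 (SD, n = 3) under control conditions and 1103 ± 539 (SD, n = 3) under CIH. The log2 fold change was -1.41 (standard error 1.42, 95% interval -4.81 to 1.99, edgeR adjusted p = 0.882). The control SD exceeded the control mean, with Control 1 as the high library. miR-183-5p was 585 ± 740 (SD, n = 3) under control conditions and 468 ± 172 (SD, n = 3) under CIH. The log2 fold change was -0.32 (standard error 1.07, 95% interval -2.88 to 2.24, edgeR adjusted p = 0.911).

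No member passed the test, and each interval holds changes of more than 2 log2 units in at least one direction. Over all 633 miRNAs, 0 (0%) had an adjusted p under 0.05 from edgeR, and 0 had one from DESeq2, limma voom or edgeR's exact test. An unadjusted p under 0.05 was reached by 16 miRNAs in edgeR. With a change of at least 1.5-fold as a further criterion, 3 of all miRNAs (0.474%) were higher and 13 (2.05%) were lower in the CIH group, and 0 members were among them. This split changed with the method, with 6 higher and 7 lower by library totals, 7 and 9 with library sizes that leave out the 5 most abundant miRNAs, 1 and 38 with upper-quartile factors, 8 and 18 with DESeq2, 10 and 19 with the exact test and 68 and 7 with limma voom. Without Control 1 it was 9 and 7. The unadjusted p was 0.265 for miR-96-5p, 0.358 for miR-182-5p and 0.772 for miR-183-5p. The median over all log2 fold changes was 0.07, and relative to it the members stood at 1.25, -1.48 and -0.39 in the same order.

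The fold changes of miR-182-5p and miR-183-5p turned on Control 1. Without Control 1, the log2 fold change was 1.90 for miR-182-5p (unadjusted p = 0.058, adjusted p = 0.942 in edgeR) and 1.60 for miR-183-5p (unadjusted p = 0.0763, adjusted p = 0.942 in edgeR). In that fit, miR-96-5p had a log2 fold change of 1.92 (unadjusted p = 0.184, adjusted p = 0.942 in edgeR). All 3 members thus had positive values of similar size, but the remaining controls include Control 2, the lowest library for each member. Without Control 2, the values were 0.83 for miR-96-5p, -1.89 for miR-182-5p and -0.76 for miR-183-5p. Without Control 3, 118 miRNAs had an adjusted p under 0.05, and the members had adjusted p-values of 0.405, 0.344 and 0.659 in the same order. The value of miR-96-5p was positive under all 17 settings tried, from 0.82 with upper-quartile factors to 2.24 with limma voom. These settings share libraries and are not independent of each other.

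The sign of miR-183-5p also changed with some of the scalings, though not only with those. With library totals in place of TMM factors, its log2 fold change was 0.31, and the median of all miRNAs was 0.33. Relative to that median it stood at -0.02, while miR-96-5p stood at 1.13 and miR-182-5p at -0.97. By library totals, miR-96-5p stood at 206, 15.3 and 411 CPM across the control libraries and at 721, 574 and 440 CPM across the CIH libraries, so the groups did not overlap. On that scale 23 of the 633 miRNAs (3.63%) had every CIH library above every control library. With TMM normalization 32 did (5.06%), and 0 members were among them. The gap that decides this is the one between Control 3, at 411 CPM (95% Clopper-Pearson interval 368 to 458), and CIH 3, at 440 CPM (390 to 494). These intervals, which cover counting error only, overlap. In Control 2 the 73 counts of miR-96-5p, the lowest of any member, allow 12.0 to 19.2 CPM by the same interval.

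**Figure D3:**
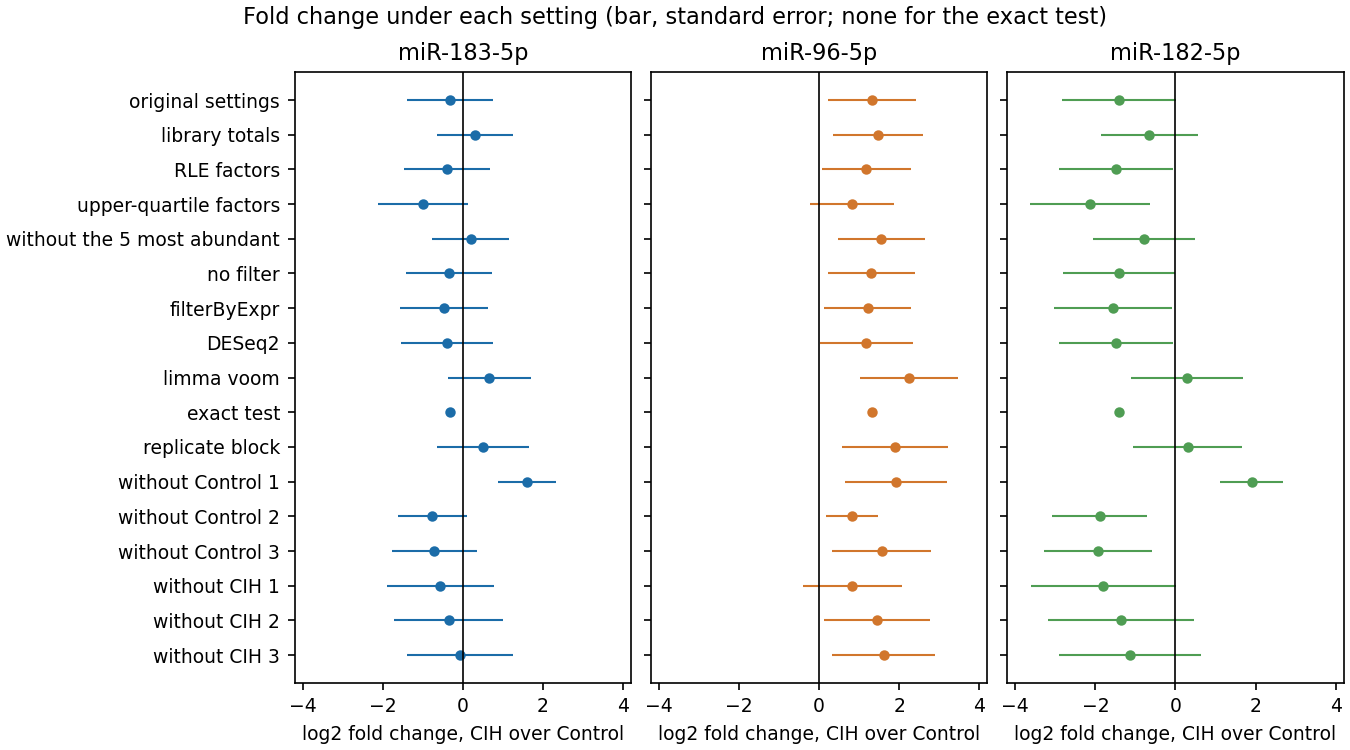
Log2 fold change of CIH over control for each member (points) with its standard error (bars, not given by the exact test) under the 17 settings. miR-96-5p is above 0 throughout, and miR-182-5p moves from -1.41 with the original settings to 1.90 without Control 1.

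The makeup of the cluster by counts, which does not depend on how libraries are scaled, was next compared. miR-182-5p made up 52.1% (95% Clopper-Pearson interval 50.6 to 53.7), 51.8% (49.4 to 54.1) and 51.0% (48.1 to 54.0) of the summed counts of the 3 members in CIH 1, 2 and 3. These intervals overlap. In Control 1, 2 and 3 the share was 82.0% (81.1 to 82.8), 62.4% (59.5 to 65.3) and 45.5% (42.5 to 48.5), and none of these intervals overlap.

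miR-96-5p made up 3.61% (3.20 to 4.04) and 6.50% (5.13 to 8.10) of the summed counts in Control 1 and Control 2, by the same intervals. Its share was 30.2% (27.5 to 33.0) in Control 3. In the CIH libraries it was 28.3% (26.9 to 29.7), 23.6% (21.6 to 25.6) and 25.0% (22.5 to 27.6). Control 3 thus lay just above the CIH libraries, and Control 1 and Control 2 lay far below them. The share of miR-183-5p ranged from 14.4% to 31.1% among controls and from 19.6% to 24.6% under CIH.

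Expressed as a ratio, there were 22.7, 9.60 and 1.51 counts of miR-182-5p for each count of miR-96-5p in Control 1, 2 and 3, and 1.84, 2.20 and 2.04 in CIH 1, 2 and 3. The ratio of miR-182-5p to miR-183-5p was 5.68, 2.01 and 1.87 across the control libraries, against 2.66, 2.10 and 2.13 across the CIH libraries. Apart from Control 1, this second ratio stayed within a narrow range. The share of miR-182-5p was higher, and that of miR-96-5p was lower, in Control 1 and Control 2 than in each of the other 4 libraries.

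**Figure D4:**
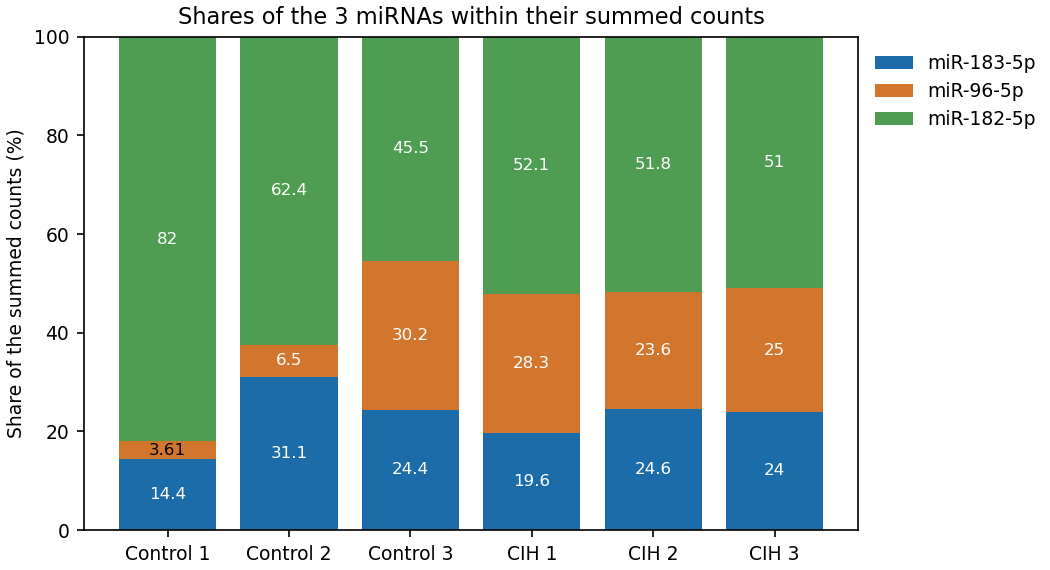
Share of each member (stacked bars, in %) in the summed counts of the 3 members, for each library. miR-96-5p takes 3.61% and 6.50% in Control 1 and Control 2 and between 23.6% and 30.2% in the other 4 libraries.

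None of the shares differed between the groups beyond the spread of the libraries. The share of miR-96-5p was 13.4% ± 14.6 (SD, n = 3) under control conditions and 25.6% ± 2.41 (SD, n = 3) under CIH, a difference of 12.2 percentage points (two-sided exact permutation test, p = 0.4). Control 3 alone among the controls lay above the CIH mean. The share of miR-182-5p was 63.3% ± 18.3 (SD, n = 3) and 51.6% ± 0.557 (SD, n = 3), a difference of -11.6 percentage points (same exact permutation test, p = 0.4). The share of miR-183-5p was 23.3% ± 8.38 (SD, n = 3) and 22.8% ± 2.73 (SD, n = 3), a difference of -0.533 percentage points (same exact permutation test, p = 0.9). Over these 3 comparisons the Benjamini-Hochberg adjusted values were 0.6, 0.6 and 0.9. With 3 libraries against 3, the smallest p this test can give is 0.1.

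The level of each member also varied more between the control libraries than between the CIH libraries. The highest control library exceeded the lowest 48.2-fold for miR-182-5p, 20.4-fold for miR-96-5p and 17.0-fold for miR-183-5p. Between the CIH libraries these ranges were 2.72-fold, 3.01-fold and 2.17-fold. For miR-182-5p the coefficient of variation was 155% between controls and 48.9% between CIH libraries, with 126% and 36.7% for miR-183-5p and 81.1% and 56.9% for miR-96-5p. Over the 395 miRNAs that averaged 10 TMM-normalized CPM or more, the medians were 84.2% and 27.6%, and 345 had the higher value in the control group. The wider spread of the controls was therefore not particular to this cluster, and no test was made of it.

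**Figure D5:**
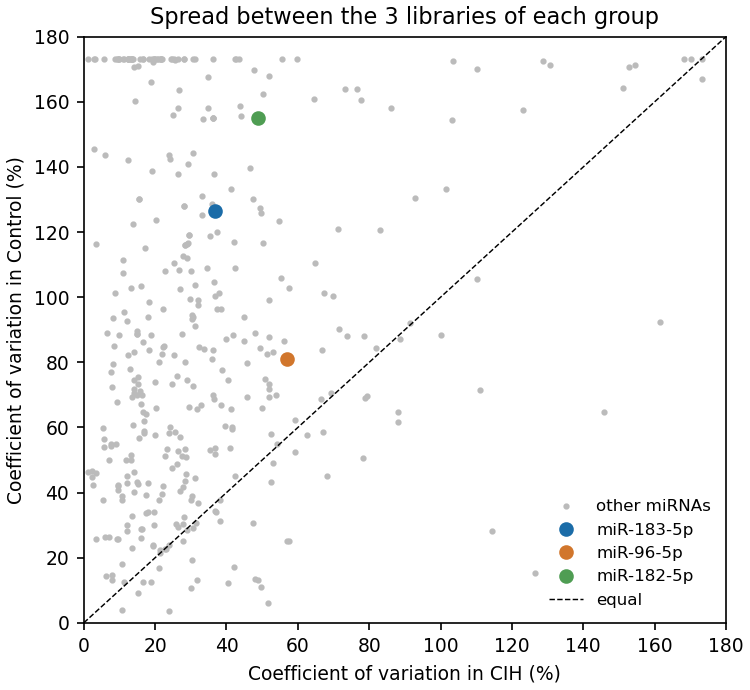
Coefficient of variation (%) between the 3 CIH libraries (x axis) and between the 3 control libraries (y axis) for 395 miRNAs (grey) and the 3 members (coloured), with a dashed line where both are equal. All 3 members lie above the line, as do 345 of the 395 miRNAs.

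Likeness between profiles was described by the mean absolute difference of centred log2 TMM-normalized CPM over the 6 libraries, among the 238 miRNAs that reached 10 counts in each of them. The distance between miR-182-5p and miR-183-5p was 0.42, which made miR-183-5p the second nearest of 237 miRNAs to miR-182-5p and miR-182-5p the third nearest to miR-183-5p. The nearest to each was a miRNA outside the cluster, MIMAT0000233 at 0.36 for miR-182-5p and MIMAT0000516 at 0.25 for miR-183-5p. miR-96-5p was 1.04 from miR-183-5p and 1.32 from miR-182-5p, where it ranked 82nd and 74th. Seen from miR-96-5p, miR-183-5p ranked 23rd and miR-182-5p 74th of 237 miRNAs. The nearest to miR-96-5p was also a miRNA outside the cluster, at 0.39. The medians over all miRNAs were 1.17 from miR-183-5p, 1.49 from miR-182-5p and 1.48 from miR-96-5p. The miRNA outside the cluster nearest to the summed level of the 3 members was MIMAT0000233, at 0.42, with 21966, 964 and 1275 counts across Control 1, 2 and 3, against 5214, 2072 and 940 across CIH 1, 2 and 3. In TMM-normalized CPM, this miRNA stood at 27947, 233 and 1149 across the control libraries, against 4187, 2239 and 1020 across the CIH libraries. On that scale, though not by count, it shared with miR-182-5p the highest value in Control 1 and the lowest in Control 2. These distances rest on 6 libraries that also differ in depth and in the number of miRNAs found, whose part in them was not tested.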

How the data were processed

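Small RNA from WAT was sequenced on an Illumina instrument. The deposited file holds raw, unnormalized counts of reads on 707 mature miRNAs for 6 libraries, and trimming, aligner, miRNA database release and treatment of reads matching several miRNAs are not given in the sources used here. Those choices affect similar sequences most. Libraries were grouped by their titles (3 control, 3 CIH), and every pair differed by more than counting noise. Over the whole table, the chi-square per degree of freedom of Control 3 was 368, 206 and 120 against CIH 1, 2 and 3. Against Control 1 and Control 2 it was 1663 and 3668. The value between Control 1 and Control 2 was 3619, so these libraries also differed from each other. This statistic also grows with depth. The counts were fitted as a whole table in edgeR 4.0.16 (R 4.3.3): at least 10 summed counts, TMM factors, quasi-likelihood test, no covariate besides group, Benjamini-Hochberg adjustment over 633 miRNAs. A standard error is the log2 fold change divided by the square root of F. The script was run on simulated counts with large changes and a low spread between libraries. The control libraries here spread more widely, so that check does not cover data like these. Shares were tested by exact permutation in scipy 1.17.1, with Clopper-Pearson intervals at 95%, which cover counting error only. Alternatives were DESeq2 1.42.0, limma 3.58.1 with voom, edgeR's exact test, other scalings and filters, the replicate number as a block, and each library left out. The members and lists were chosen with earlier results of these data known. The rule for named miRNAs took the 3 members, their 3p arms, marker lists and the 5 nearest profiles. Of these profiles 2 outside the cluster are described, and a further profile outside the cluster is left out. The 2 are named by accession because names were not paired with accessions. RT-qPCR, predicted targets and enrichment are not analysed here.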

Additional observations from a re-analysis of the deposited data

How the results depend on the processing

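No member reached an adjusted p under 0.05 under any of the 17 settings, and miR-96-5p kept its direction in all of them. The settings refit the same libraries, in whole or in part, so the kept direction is not independent support. The lowest unadjusted p of miR-96-5p was 0.112, with limma voom. The log2 fold change of miR-183-5p, -0.32 with the original settings, turned positive with library totals (0.31), library sizes without the 5 most abundant miRNAs (0.20) and limma voom (0.66). That of miR-182-5p turned positive with limma voom (0.29). With each library left out in turn, it ran from -0.76 to 1.60 for miR-183-5p, from 0.83 to 1.92 for miR-96-5p and from -1.93 to 1.90 for miR-182-5p, with the highest value of each without Control 1. The differences of shares ran from -4.96 to 3.36 percentage points for miR-183-5p, from 7.26 to 20.6 for miR-96-5p and from -20.6 to -2.30 for miR-182-5p. As log2 ratios, the differences were -1.77 for miR-182-5p over miR-96-5p and -0.28 over miR-183-5p. The cause was not tested.

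Replicate numbers are shared between the groups, and the deviations of same-numbered libraries correlated at 0.353, -0.116 and 0.0195. These values were not compared with those of differently numbered libraries, so they do not settle whether the numbers mark pairs. When the replicate number was fitted as a block, the log2 fold change was 0.51 for miR-183-5p and 0.31 for miR-182-5p, and the count of all miRNAs at an unadjusted p under 0.05 and at least 1.5-fold was 3 in place of 16. This count was 39 with upper-quartile factors, 26 with DESeq2, 75 with limma voom and 29 with the exact test, each of 633 miRNAs. With filterByExpr it was 8 of 407. It ran from 1 without CIH 3 to 225 without Control 3, with 6 each without CIH 1 and CIH 2. The fits with a library left out tested between 575 and 622 miRNAs. The count at an adjusted p under 0.05 ran from 0 to 118. The lowest count of a member was 73.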
